A study of Caenorhabditis elegans with 6 samples.

Results

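The spliced leader RNA genes of Caenorhabditis elegans were taken as every gene that the count tables class as a splicing leader or name with the prefix sls-1. or sls-2. This rule, which uses no measured value, found 30 of 45510 genes, of which 12 were SL1 genes (sls-1.1 to sls-1.12) and 18 were SL2 genes (sls-2.1 to sls-2.18). Spliced leader RNAs are short, capped nuclear RNAs that, as small ribonucleoproteins with Sm proteins, donate their leader exon to the start of pre-mRNAs by trans-splicing. SL1 is joined to the first gene of an operon and to many single genes, and SL2 mainly to downstream genes of operons. In this worm the SL1 genes lie in the tandem 5S ribosomal RNA repeat, whereas SL2 genes are dispersed.

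Small RNA was sequenced from L3 larvae of 3 genotypes, each as total small RNA and as RNA eluted from an anti-FLAG immunoprecipitate (IP) of NRDE-3, an Argonaute protein that carries small interfering RNAs (siRNAs) to the nucleus. The control was eri-1(mg366) with tagged NRDE-3 (GFP::NRDE-3 in the library names, FLAG::GFP::NRDE-3 in the IP protocol). The mutants carried susi-2(ust49) or susi-3(ust51) in that same background, so every library, controls included, came from an eri-1 mutant, and eri-1 encodes an exonuclease that restrains RNA interference. The series asks how erroneous ribosomal RNA leads to antisense ribosomal siRNA, and the comparisons here are each mutant against control in both kinds of library, and IP against total within a genotype. The labels give 15 °C for all libraries and 20 °C for maintenance, and they state neither the lesions of the alleles nor the promoter of the tagged NRDE-3. No immunoprecipitate from worms without the tag was analysed here, so RNA bound by NRDE-3 and RNA carried over cannot be told apart.

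Each of the 6 groups was 1 library, so no mutant was tested against the control; IP against total RNA was tested with the 3 genotypes as blocks. Library totals ranged from 9122066 to 10755494 counts, which makes 1 count worth 0.0930 to 0.110 counts per 1000000 counts (CPM), and the 95% intervals given with ratios and percentages are exact and cover counting error only, as no molecular identifiers are described for the reads. Sense ribosomal RNA took 28.3 to 33.0% of the counts in the total libraries and 50.4 to 59.4% in the IP libraries. The libraries also differed in genes outside the family. Sense counts of 21U-RNAs, the germline piRNAs, were 1.29% of the control, 0.422% of the susi-2 and 0.593% of the susi-3 total library. The microRNA lin-4 had 2957, 3906 and 6340 counts and let-7, which accumulates late in larval life, had 103538, 43872 and 57826 counts in the control, susi-2 and susi-3 total libraries. In whole larvae, fewer cells of a type and less RNA per cell cannot be told apart, and whether stage or germline content plays a part in the results was not tested.

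Spliced leader genes made up 0.0735% of all counts in total RNA of the control, 0.0565% of those of susi-2 and 0.0741% of those of susi-3. In the IP libraries the share was 0.0151% for the control, 0.0218% for susi-2 and 0.0103% for susi-3. The share was thus lower after IP than before it in each genotype. The files give counts per gene and strand and no read length, so siRNAs and other fragments of 17 to 30 nucleotides were counted together.

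The SL1 genes were almost wholly a sense signal, with 1 exception. In the control total library 11 of the 12 copies had 430 to 547 sense counts each (median 523) and 1 to 5 antisense counts each. The same 11 copies had sense medians of 339 in total susi-2, 324 in total susi-3, 92.0 in the control IP, 98.0 in the susi-2 IP and 60.0 in the susi-3 IP. The lowest sense counts among these 11 belonged to sls-1.1 (430) and sls-1.5 (477) in the control total library. The SL1 genes are near-identical, so their copies may share reads, and how the authors placed reads with several matches is not given in the sources used here. Values of single SL1 copies are therefore uncertain, and the family sum is the safer measure.

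The exception was sls-1.12, whose counts lay on the opposite column. It had 757 antisense counts and 5 sense counts in the control total library, 520 and 5 in total susi-2, and 466 and 29 in total susi-3. In the IP libraries it had 127 antisense and 1 sense count in the control, 182 and 1 in susi-2, and 99 and 0 in susi-3. From 94.1 to 100.0% of its counts were thus antisense, and its antisense count was 1.38 to 1.86 times the median sense count of the other copies in every library. Its neighbours in the RefSeq gene order behaved alike in the control total library: sls-1.12 lies between rrn-4.3 and rrn-4.4, and these 2 genes of 5S ribosomal RNA, with rrn-4.2 beside them, had 99.6 to 99.7% antisense counts. By contrast, the 5S gene rrn-4.5, next in that order, had 0.292%. The strand of sls-1.12 could be read only from the counts, as the gene tables used here carry no strand. The summed SL1 ratios and percentages are therefore given as annotated and, chosen after its counts were seen, with the sense and antisense columns of sls-1.12 exchanged.

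**Figure D1:**
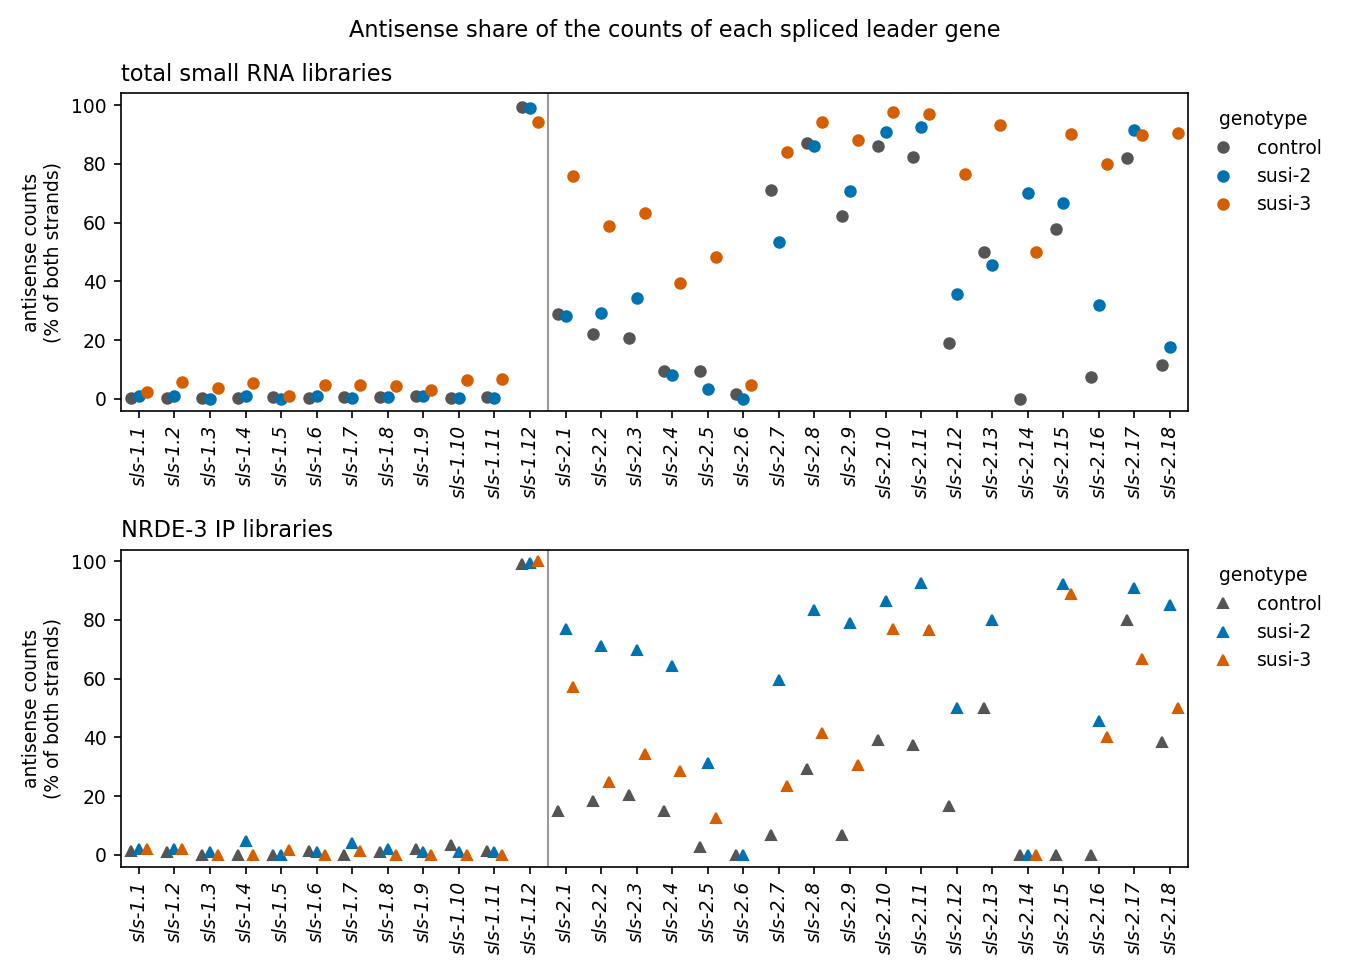
Antisense counts as a percentage of both strands for each of the 30 spliced leader genes (x axis), in the total small RNA libraries (upper panel) and the NRDE-3 IP libraries (lower panel), with 1 point per library coloured by genotype. The grey line parts SL1 from SL2, and a gene with no count on either strand has no point. The SL1 gene sls-1.12 sits at 94.1 to 100.0% while the other SL1 copies lie near 0, and the SL2 copies spread over the whole range, with susi-3 highest for most copies in total RNA and susi-2 highest for most in the IP.

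With sls-1.12 exchanged, SL1 antisense counts were rare in 5 of the 6 libraries. They were 33 in the control total library, 26 in total susi-2 and 193 in total susi-3, against 6365, 4138 and 3969 sense counts. In the IP libraries they were 11, 21 and 4, against 1145, 1257 and 738 sense counts. The antisense percentage of SL1 in total RNA was 0.516% (0.355 to 0.724) for the control, 0.624% (0.408 to 0.914) in the susi-2 and 4.64% (4.02 to 5.32) in the susi-3 library. The highest of the 6 values was thus that of total susi-3, in which each of the 11 other copies had 3 to 23 antisense counts; sls-1.5 had the 3, and sls-1.10 and sls-1.11 had 23 each. As annotated, the SL1 antisense percentage stayed between 11.8 and 15.8% in all 6 libraries, a level set almost wholly by sls-1.12.

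SL2 carried a far larger antisense share, and this share varied most among the libraries. SL2 antisense counts summed to 581 in the control total library, 889 in total susi-2 and 2596 in total susi-3, beside 745, 861 and 531 sense counts. They summed to 80 in the control IP, 530 in the susi-2 IP and 94 in the susi-3 IP, beside 384, 179 and 138 sense counts. Antisense was 43.8% (41.1 to 46.5) of SL2 counts in total RNA of the control, 50.8% (48.4 to 53.2) in the susi-2 and 83.0% (81.7 to 84.3) in the susi-3 library. After IP it was 17.2% (13.9 to 20.99) in the control, 74.7% (71.4 to 77.9) in susi-2 and 40.5% (34.1 to 47.1) in susi-3. The highest antisense share was thus in susi-3 among the total libraries and in susi-2 among the IP libraries, and in each kind of library the interval of the highest did not overlap those of the other two.

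Read by strand, SL1 led the sense counts, and SL2 led the antisense counts in all 6 libraries only with sls-1.12 exchanged. As annotated, SL1 held 57.5% of the antisense counts in total control, 63.1% in the control IP and 52.3% in the susi-3 IP. It held 37.8% in total susi-2, 19.5% in total susi-3 and 27.6% in the susi-2 IP. SL1, as annotated, made up 80.8 to 88.3% of the sense spliced leader counts of the total libraries and 72.6 to 85.7% of those of the IP libraries. With sls-1.12 exchanged these shares were 82.8 to 89.5% and 74.9 to 87.5%. Of the antisense counts SL1 with sls-1.12 exchanged made up 2.84 to 12.1% over the 6 libraries, and as annotated 19.5 to 63.1%. The 12.1% was from the control IP, which had 91 antisense spliced leader counts in all under that reading (interval 6.19 to 20.6).

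**Figure D2:**
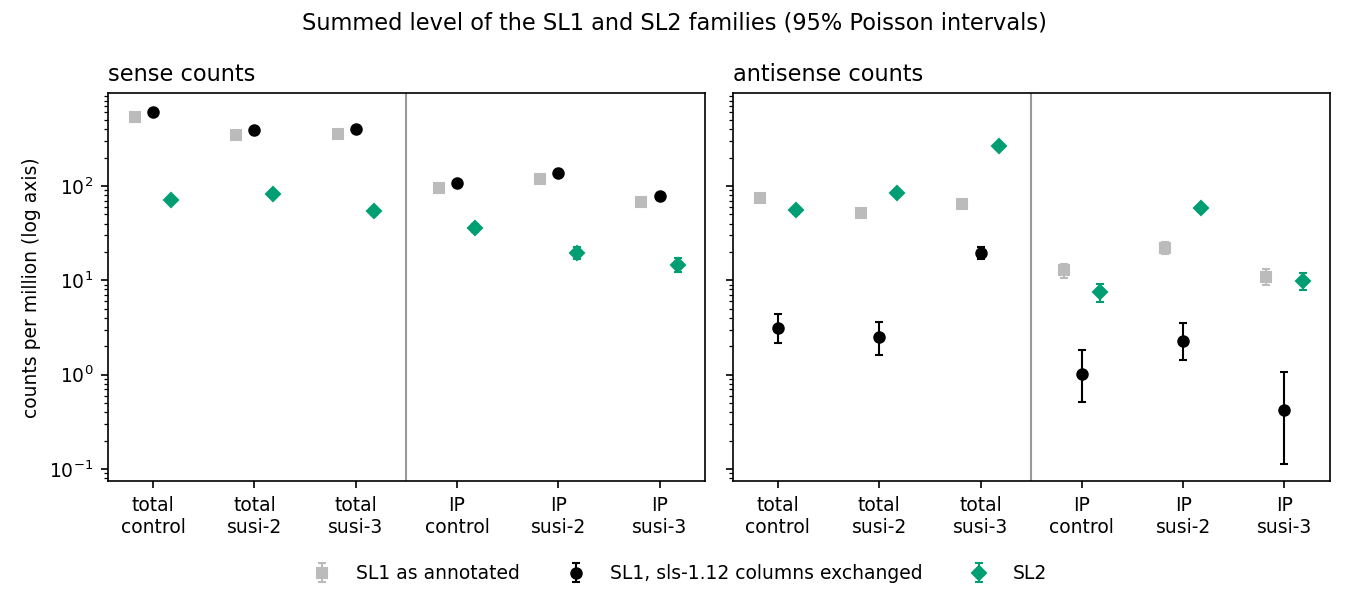
Summed CPM (log axis) of SL1 as annotated (grey squares), SL1 with the columns of sls-1.12 exchanged (black circles) and SL2 (green diamonds) in each library, sense on the left and antisense on the right, with 95% Poisson intervals for counting error. SL1 lies above SL2 on the sense strand in all 6 libraries, and SL2 reaches 263.8 CPM antisense in total susi-3 and 58.1 CPM in the susi-2 IP.

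In susi-3 total small RNA, SL2 antisense stood at 4.77 times its control share (4.36 to 5.23), with 263.8 CPM against 55.3 CPM. All 18 SL2 genes had a higher antisense share than in the control, where 20.6% of the 5460 genes tested (those whose antisense counts in the pair came to 50 or more) did. Only 13 of the 18 reached that minimum, so the 2 sets differ in coverage. The same limit holds below wherever all 18 copies are set beside the genes tested. SL1 antisense with sls-1.12 exchanged was also higher, at 6.25 times the control (4.30 to 9.33), but as annotated it was 0.857 times (0.771 to 0.953). Sense counts lay the other way for both families: SL1 sense was 0.672 times the control (0.644 to 0.701) and SL2 sense 0.761 times (0.680 to 0.852). Antisense counts summed over all genes were 0.769 times the control, so both SL2 and the re-read SL1 stood above the table as a whole.

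Gene by gene, on log2(CPM + 1), 13 SL2 genes and sls-1.12 reached 50 antisense counts over the control and susi-3 total libraries. At least 2-fold higher values were found for all 13 of these SL2 genes, with a median log2 difference of 1.89, where 5.48% of all genes tested were at least 2-fold higher and the median over all genes was -0.56. Of these 13 genes, 7 had fewer than 25 counts in the control and so reached the minimum only through the susi-3 library, where they had to be higher, and their count is a description; sls-2.18 and sls-2.16 are such genes. The other 5 SL2 genes (sls-2.5, sls-2.6, sls-2.12, sls-2.13 and sls-2.14) were below the minimum, with 31, 2, 23, 14 and 6 antisense counts in susi-3 against 9, 1, 4, 3 and 0 in the control.

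In total RNA most SL2 antisense counts came from the copies sls-2.7 to sls-2.11. The marker sls-2.8 had 114, 160 and 423 antisense counts in total RNA of the control, susi-2 and susi-3, and 5, 35 and 5 in the corresponding IP libraries. It was highest in total susi-3 and, among the IP libraries, in susi-2. Its sense counts were 17, 26 and 26 in total RNA and 12, 7 and 7 after IP. The copy sls-2.9 had 97, 144 and 421 antisense counts in total RNA and 3, 49 and 4 after IP, with 59, 59 and 56 sense counts in total RNA. Here the sense level in total RNA differed little while the antisense level in susi-3 was 4.64 times the control (3.71 to 5.84).

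The copies sls-2.10 and sls-2.11 share a cosmid by their sequence names, F23B2.14 and F23B2.15. The first had 80, 132 and 338 antisense counts in the control, susi-2 and susi-3 total libraries, then 9, 71 and 10 after IP. The second had 56, 148 and 316 in total RNA and 6, 63 and 13 after IP. Both kept the order control, susi-2, susi-3 in total RNA, and susi-2 stood highest after IP. Of the SL2 genes tested in total susi-2, sls-2.11 had the highest antisense ratio, 2.65 (1.94 to 3.68). The copy sls-2.7 differed: it had 87, 71 and 277 antisense counts in total RNA and 3, 22 and 4 after IP, and its ratio in total susi-2, 0.819 (0.590 to 1.13), was the lowest among the SL2 genes tested there.

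The copies sls-2.5, sls-2.16 and sls-2.18 overlap glr-2, a glutamate receptor gene, and had a sense-dominated signal in the control that was reduced or turned in susi-3. The copy sls-2.18 had 54, 75 and 16 sense counts in the control, susi-2 and susi-3 total libraries, and 7, 16 and 153 antisense counts. Its antisense ratio in susi-3 was 23.3 (11.1 to 59.0), and its difference on log2(CPM + 1), 3.31, was the highest among the SL2 genes tested, while its sense ratio was 0.316 (0.169 to 0.561). It also overlaps a noncoding RNA gene, B0280.21. The copy sls-2.16 had 2, 14 and 76 antisense counts and 25, 30 and 19 sense counts, an antisense ratio in susi-3 of 40.6 that rests on 2 control counts (10.9 to 341). The copy sls-2.5 kept more sense than antisense, with 85, 116 and 33 sense and 9, 4 and 31 antisense counts. The glr-2 gene itself had 4 to 14 antisense and 9 to 13 sense counts in the total libraries. On either strand this was fewer than the antisense counts of sls-2.18 or sls-2.16 in susi-3.

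On log2(CPM + 1) the lowest difference among the SL2 genes tested in total susi-3, 1.55, was that of sls-2.4, with 16, 12 and 63 antisense counts in total RNA. Its ratio of shares was 4.21 (2.40 to 7.80), and by that measure sls-2.7 was the lowest of the tested genes, at 3.40 times (2.66 to 4.38). The copy sls-2.4 had the most sense counts of any SL2 gene in the total libraries, 151, 134 and 96. The copy sls-2.6, within hgo-1, an enzyme gene of tyrosine breakdown, had 60, 74 and 39 sense counts in total RNA but only 1, 0 and 2 antisense counts, all at or under the 3 counts that a count of 0 allows. The copies sls-2.12, sls-2.13 and sls-2.14 had 0 to 23 antisense counts in every library. In the control total library 7 of the 18 copies (sls-2.7 to sls-2.11, sls-2.15 and sls-2.17) had more antisense than sense counts. The number was 8 in total susi-2 and 14 in total susi-3, and it was 1, 13 and 5 in the control, susi-2 and susi-3 IP libraries.

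**Figure D3:**
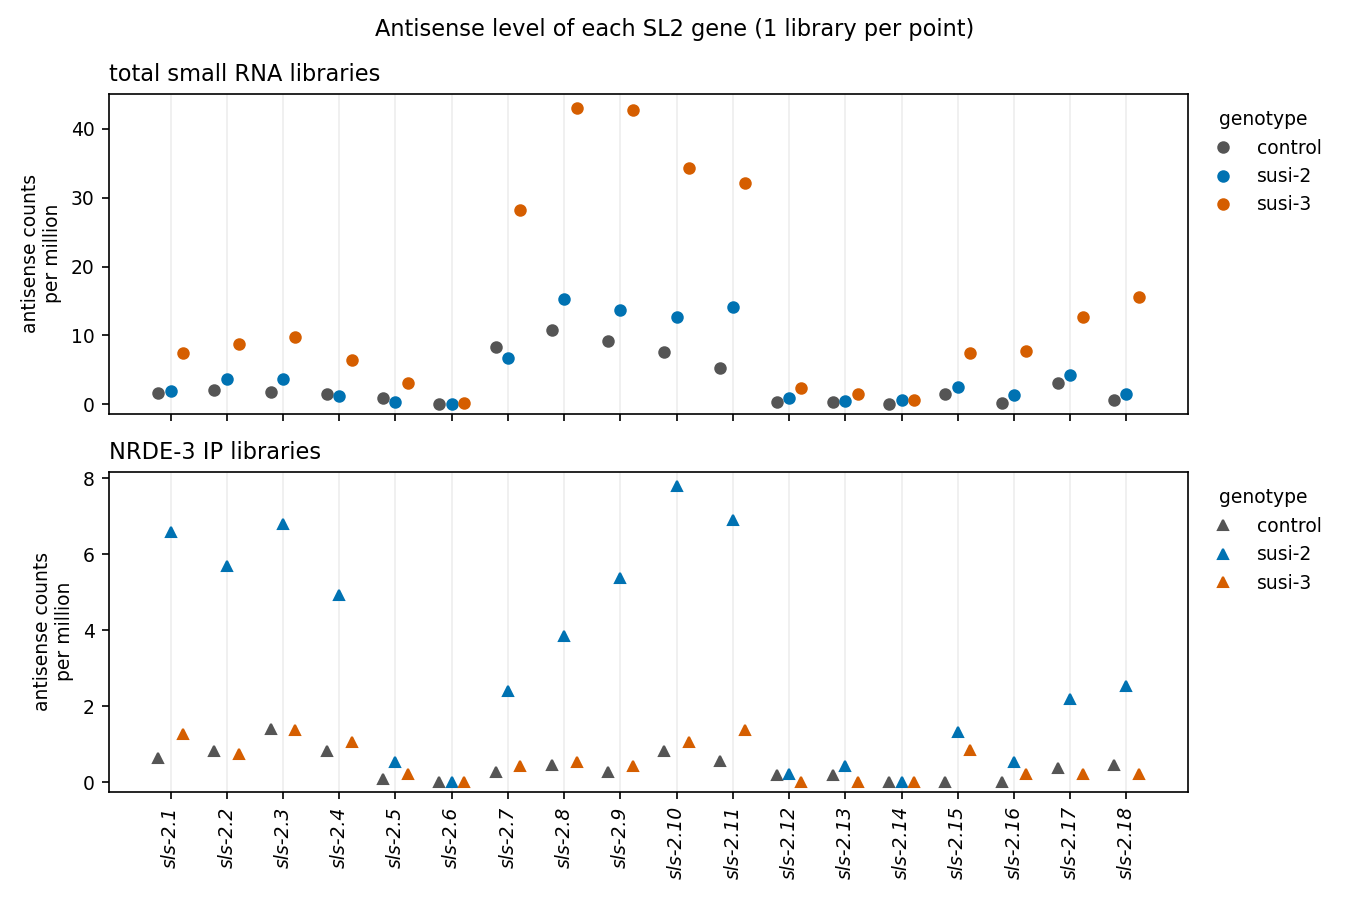
Antisense CPM (linear axes, different scales) of each of the 18 SL2 genes in the total small RNA libraries (upper panel) and the NRDE-3 IP libraries (lower panel), 1 point per library coloured by genotype. In total RNA susi-3 is highest at every copy except sls-2.14, with sls-2.7 to sls-2.11 far above the rest, while in the IP susi-2 stands out and sls-2.1 to sls-2.4 reach levels like those of sls-2.9 to sls-2.11.

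In susi-2 total small RNA the differences were smaller. SL2 antisense was 1.54 times the control (1.38 to 1.71), with 84.9 against 55.3 CPM, while antisense counts over all genes were 0.676 times the control. A higher antisense share was seen for 14 of the 18 SL2 genes, where 17.6% of the 5362 genes tested had one. Of 8 SL2 genes tested, 1 (sls-2.11) was at least 2-fold higher and 0 were at least 2-fold lower, where 3.94% of all genes were higher and 25.0% lower. The median log2 difference of these 8 was 0.56 and that of all genes -0.60. Of the 8, 2 (sls-2.2 and sls-2.3) had fewer than 25 control counts and could reach the minimum only where susi-2 was higher. The median and the counts are thus in part a description. Both mutants were set against the same control library, so the values of that library enter both comparisons.

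On the sense strand of susi-2 the families parted. SL1 sense was 0.648 times the control (0.621 to 0.676) and SL2 sense 1.16 times (1.05 to 1.28). All 11 SL1 genes tested were lower, by log2 values of -0.47 to -0.73, where 25.6% of the 8350 genes tested were, although none was at least 2-fold lower, where 8.59% were. As the SL1 copies may share reads, these 11 are not separate observations. Among the 10 SL2 genes tested on the sense strand, 9 were higher, where 74.4% of all genes were, the highest being sls-2.7 at 1.78 times (1.16 to 2.77). SL1 antisense in susi-2 was 0.692 times the control as annotated (0.619 to 0.773) and 0.791 times with sls-1.12 exchanged (0.454 to 1.36), an interval that holds 1. Scaled to the antisense counts alone by TMM, the trimmed mean of M-values, the annotated SL1 ratio turned to 1.01 in susi-2 and to 1.21 in susi-3.

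The 5S genes share the repeat with SL1 and had other values. With the columns of the 3 antisense-rich 5S genes near sls-1.12 exchanged like those of sls-1.12, 5S sense counts were 1.91 times the control in total susi-2 and 1.75 times in total susi-3, where SL1 sense, exchanged in the same way, was 0.653 and 0.666 times. Sense fragments of the 2 RNAs of 1 repeat thus stood on opposite sides of the control in both mutants. As annotated, the 5S sense ratios were 1.89 and 1.72. After IP from susi-2, 5S antisense was 5.48 times the control as annotated (5.38 to 5.59), with 57895 counts against 12452, and 278 times with the columns exchanged (249 to 310), with 77208 counts against 328. The size of the summed ratio thus depends on how those 3 genes are counted, and the exchange was chosen after the counts were seen. High ratios of single 5S genes did not need the exchange. As annotated, 12 of 15 5S genes tested were at least 2-fold higher, where 45.8% of all genes were, with a median log2 difference of 7.48. Among them, rrn-4.1 had 15 antisense counts in the control IP and 3897 in the susi-2 IP. These 12 genes reached the minimum only through the susi-2 IP, so their count is a description. SL1 antisense in the same pair of libraries was 21 against 11 counts with sls-1.12 exchanged, 2.25 times (1.04 to 5.17).

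In the NRDE-3 IP from susi-2, SL2 antisense was 7.81 times the control IP (6.17 to 10.0), with 58.1 against 7.44 CPM. Of the 18 SL2 genes, 16 had a higher antisense share and 2 (sls-2.6 and sls-2.14) had 0 counts in both libraries, where 80.9% of the 4436 genes tested were higher. At least 2-fold higher values were found for all 7 SL2 genes tested, with a median log2 difference of 2.20, but 45.8% of all genes tested were at least 2-fold higher too and the median over all genes was 0.92. These 7 genes had 3 to 15 counts in the control IP and 45 to 71 in the susi-2 IP, so all reached the minimum only through the library where they were high, and their count and median are a description. Antisense counts over all genes were 1.97 times the control IP. That sum leans on 1 gene, as 26S ribosomal RNA held 717187 of the 2119435 antisense counts of the susi-2 IP. In the control IP it had 3147. Under TMM, which moves every log2 ratio of this comparison by -1.05, SL2 antisense was 3.77 times the control and the annotated SL1 ratio, 1.74 (1.39 to 2.18), turned to 0.839.

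The order of the copies in the susi-2 IP differed from that in total RNA. The highest antisense count there belonged to sls-2.10 with 71, followed by sls-2.11 with 63, sls-2.3 with 62, sls-2.1 with 60 and sls-2.2 with 52. The copy sls-2.1 had 17, 20 and 73 antisense counts in total RNA and 7, 60 and 12 after IP, so it was highest in susi-3 before IP and in susi-2 after it. The copies sls-2.2 and sls-2.3 had 22, 38 and 86 and 19, 38 and 96 antisense counts in total RNA, and 9, 52 and 7 and 15, 62 and 13 after IP. On log2(CPM + 1) the lowest difference among the SL2 genes tested in the susi-2 IP was that of sls-2.4 (1.69), with 9 counts in the control and 45 in susi-2, and by ratio of shares the lowest was sls-2.3, at 4.87 times (2.74 to 9.23).

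In the susi-3 IP, SL2 antisense was 1.33 times the control IP with an interval that holds 1 (0.976 to 1.81). It was 1.43 times under TMM (1.05 to 1.96) and 1.58 times with counts outside ribosomal RNA genes as the denominator (1.16 to 2.15), so whether the interval holds 1 depends on the scale. Antisense counts over all genes were 0.912 times the control IP. Of the 18 SL2 genes, 10 had a higher and 6 a lower antisense share and 2 had 0 counts in both libraries, where 31.8% of the 2823 genes tested were higher and 68.2% lower. No SL2 gene reached 50 antisense counts over these 2 libraries, so those percentages come from genes with more counts than any SL2 gene had. The only member tested, sls-1.12, was neither at least 2-fold higher nor lower, where 11.8% of all genes were higher and 23.0% lower. SL1 antisense was 0.851 times the control IP as annotated (0.652 to 1.11) and 0.411 times with sls-1.12 exchanged (0.0955 to 1.39), which is 4 counts against 11. The 94 SL2 antisense counts of the susi-3 IP give little depth, and a difference under about the width of that interval could not have been seen.

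SL2 sense counts were lower in both mutant IPs, at 0.550 times the control IP in susi-2 (0.458 to 0.658) and 0.407 times in susi-3 (0.332 to 0.495). Lower sense values were common there: 6857 of 8731 genes tested were lower in the susi-2 IP and 6787 of 8610 in the susi-3 IP. Summed tRNA sense counts were 0.532 and 0.379 times the control IP, so the lower level was not particular to SL2. SL1 sense was 1.25 times the control IP in susi-2 (1.14 to 1.36) and 0.709 times in susi-3 (0.642 to 0.784), and with sls-1.12 exchanged 1.29 and 0.729 times. The 2 families thus differed in direction on the sense strand of the susi-2 IP. Of 5 SL2 genes tested for sense counts in the susi-3 IP, 2 were at least 2-fold lower (sls-2.7 and sls-2.9), where 9.04% of all genes tested were. In total susi-3 the same count was 2 of 9 (sls-2.5 and sls-2.18), where 8.02% of all genes were. The genes sls-2.7 and sls-2.9 had 41 sense counts each in the control IP and 13 and 9 in the susi-3 IP. In total RNA sls-2.18 had 54 in the control and 16 in susi-3. These genes reached the minimum only through the control library, where they were high, so both counts are descriptions.

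Set against total RNA of the same genotype, SL2 antisense was lower in the IP of the control, at 0.135 times (0.105 to 0.170), and of susi-3, at 0.0375 times (0.0302 to 0.0461). In susi-2 it was 0.684 times (0.613 to 0.763), but 1.21 times when counts outside ribosomal RNA genes were the denominator. Antisense counts over all genes were 0.454 times the total library in the control, 1.32 times in susi-2 and 0.538 times in susi-3. The susi-2 value leans on 1 gene. The 26S ribosomal RNA gene held 717187 of the 2119435 antisense counts of the susi-2 IP, but 1214 in total susi-2. All 13 SL2 genes tested in susi-3 were at least 2-fold lower in the IP, where 65.8% of all genes were. In the control all 5 tested were at least 2-fold lower, where 70.8% of all genes were. The tested genes had 2 to 13 antisense counts in the susi-3 IP and 3 to 9 in the control IP. All thus reached the minimum only through total RNA, where they had to be higher, and their counts are descriptions. By the family sums, the SL2 antisense counts that were high in total susi-3 were not matched by high counts in the NRDE-3 IP of that mutant. SL1 sense in the IP was 0.177, 0.341 and 0.187 times total RNA in the control, susi-2 and susi-3 as annotated, and 0.176, 0.349 and 0.193 times with sls-1.12 exchanged. SL1 antisense was 0.171, 0.429 and 0.169 times as annotated, and 0.326, 0.927 and 0.0215 times with sls-1.12 exchanged, which leaves 4 to 21 counts in each IP library.

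Over the 3 genotypes as blocks, IP was tested against total RNA with edgeR's quasi-likelihood test, added after the data were seen, on the genes with 50 or more counts of a strand over the 6 libraries. At a Benjamini-Hochberg adjusted p under 0.05, 8 of the 14 SL2 genes tested were lower in the IP on the antisense strand and 0 higher, where 26.6% of all genes tested were lower. These 8 were sls-2.7 to sls-2.11, sls-2.15, sls-2.16 and sls-2.17, with sls-2.8 at a log2 difference of -4.19 (adjusted p = 0.000168 by edgeR). The other 6, among them sls-2.1 to sls-2.4, had adjusted p of 0.104 to 0.709 by edgeR, with log2 differences of -0.49 for sls-2.4 to -2.08 for sls-2.5. On the sense strand 11 of 11 SL1 genes, which may share reads, and 8 of 14 SL2 genes were lower, where 20.3% of all genes were. Of the SL2 genes called, sls-2.7, sls-2.8, sls-2.15, sls-2.16 and sls-2.17 had fewer than 50 antisense counts over the 3 IP libraries. On the sense strand sls-2.6, sls-2.12, sls-2.16 and sls-2.18 had fewer than 50. Such genes reached the minimum only with total RNA, where they were higher, so both SL2 counts are descriptions. The calls for both families also rest on few libraries. Without the susi-3 pair 0 SL2 genes were lower on the antisense strand (1 at an unadjusted p under 0.05), without the control pair 1 was, and without the susi-2 pair all 14 were. Without the susi-3 pair 0 SL1 genes (5 at an unadjusted p under 0.05) and 2 SL2 genes were lower on the sense strand, and without the susi-2 pair 3 SL2 genes were.

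Within SL2 the IP-to-total ratio varied by copy in susi-2. At least 2-fold higher in the IP were 2 of 10 genes tested, sls-2.4 at 4.31 times (2.24 to 8.94) and sls-2.1 at 3.44 times (2.05 to 6.03), where 31.4% of all genes were. These had 12 and 20 antisense counts in total susi-2 and 45 and 60 in the IP. Both thus reached the minimum only through the IP. At least 2-fold lower were 3 genes, among them sls-2.8 at 0.251 times (0.169 to 0.364), where 31.7% of all genes were. Picked after their values were seen, sls-2.1 to sls-2.4 ranged from 1.57 to 4.31 and sls-2.7 to sls-2.11 from 0.251 to 0.617 in susi-2. The same copies ranged from 0.400 to 0.772 and from 0.0302 to 0.110 in the control, and from 0.0843 to 0.170 and from 0.00984 to 0.0426 in susi-3. As the 2 sets were picked on these values, that their ranges lie apart is a description. The ratios of single copies in the control are imprecise, with 7 to 15 antisense counts in its IP for sls-2.1 to sls-2.4 and 3 to 9 for sls-2.7 to sls-2.11.

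Of the SL2 genes, 4 share their span with a noncoding RNA gene: sls-2.2 with C17C3.23, sls-2.3 with C17C3.22, sls-2.4 with R12E2.18 and sls-2.8 with Y75B8A.49. The sense counts of Y75B8A.49 were 91, 133 and 402 in total RNA and 2, 28 and 2 after IP, close to the 114, 160 and 423 and the 5, 35 and 5 antisense counts of sls-2.8. Likewise, C17C3.23 had 119 sense counts in total susi-3, where sls-2.2 had 86 antisense counts. Reads of this strand may thus be counted for either gene, and whether they come from the noncoding RNA or from RNA antisense to SL2 cannot be told apart. Adding the 4 genes, sense as antisense, gave SL2 antisense ratios of 1.49 in total susi-2, 4.77 in total susi-3, 7.84 in the susi-2 IP and 1.29 in the susi-3 IP.

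SmY RNAs, nematode RNAs that are found in complexes with the trans-splicing machinery, numbered 12 genes, and their antisense ratio was 3.04 in total susi-2 (2.65 to 3.48), 11.1 in total susi-3 (9.80 to 12.5), 7.17 in the susi-2 IP (5.43 to 9.62) and 1.13 in the susi-3 IP (0.775 to 1.65). The antisense counts of smy-1 were 51, 158 and 773 in total RNA and 6, 90 and 16 after IP, and those of smy-2 were 63, 169 and 756 and then 19, 73 and 16. All 10 SmY genes tested in total susi-3 were at least 2-fold higher (median log2 difference 2.86), where 5.48% of all genes were, and 6 of 7 in total susi-2 (median 1.41), where 3.94% were. Of these, 7 of the 10 and 4 of the 7 had fewer than 25 control counts and reached the minimum only through the mutant library, so the counts are descriptions. SmY RNAs thus had their highest antisense level in the same libraries as SL2, but with a larger ratio than SL2 in both mutant total libraries.

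The other 89 genes of the snRNA class, mainly the spliceosomal RNAs, had antisense ratios of 2.77 (2.44 to 3.15), 9.70 (8.65 to 10.9), 11.8 (10.2 to 13.6) and 1.49 (1.25 to 1.78) in the same order. Those of their genes with the most antisense counts were sup-6, with 7, 16 and 110 in total RNA and 29, 304 and 38 after IP, and T08G5.11, with 14, 39 and 126 and then 17, 197 and 25. As sums, these RNAs differed from SL2 in the IP of susi-2, where their antisense was 2.79 times that of total RNA (2.59 to 3.02) and SL2 antisense 0.684 times. Both sums mix genes that lay on either side of total RNA. In susi-2, F10D2.13 had 40 antisense counts in total RNA and 8 after IP, where sup-6 had 16 and 304. SL2 copies with more antisense than sense in the control total library stood at 0.431 times (0.373 to 0.496) and the other copies at 1.81 times (1.48 to 2.21). The 35 genes of this class tested in total susi-3 had 2 to 14 antisense counts in the control and 48 to 126 in susi-3. All 35 thus reached the minimum only through the susi-3 library, which nearly fixed that all were at least 2-fold higher, where 5.48% of all genes were.

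Genes of proteins that act with the spliced leaders are given beside all genes. The list held 13 genes: the Sm proteins snr-1 to snr-7, sna-1, sna-2 and sna-3 and sut-1, which encode proteins found with spliced leader or SmY particles, and cids-1 and cids-2. Of 12 tested, 0 were at least 2-fold higher and 0 lower in total susi-2, where 3.94% of all genes were higher and 25.0% lower; the median log2 difference was -0.30, beside -0.60 for all genes. In total susi-3, 0 were higher and 2 of 12 lower, where 5.48% of all genes were higher and 18.5% lower, and the median was -0.61, beside -0.56. In the susi-2 IP 3 of 5 tested were higher and 1 lower, where 45.8% of all genes were higher and 5.34% lower, and the median was 1.09, beside 0.92. In the susi-3 IP 0 of 3 were higher and 1 lower, where 11.8% of all genes were higher and 23.0% lower, and the median was -0.91, beside -0.37. The lower gene in both IPs was sut-1, with 1353 antisense counts in the control IP against 51 in susi-2 and 26 in susi-3, but only 23, 14 and 18 in total RNA. It held 1353 of the 1591 antisense counts of the list in the control IP, so the summed ratio of the list in the susi-2 IP, 0.405, lay under 1 while the median lay above 0. The next by antisense level, sna-3, had 208, 119 and 106 antisense counts in total RNA and 36, 99 and 32 after IP.

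**Figure D4:**
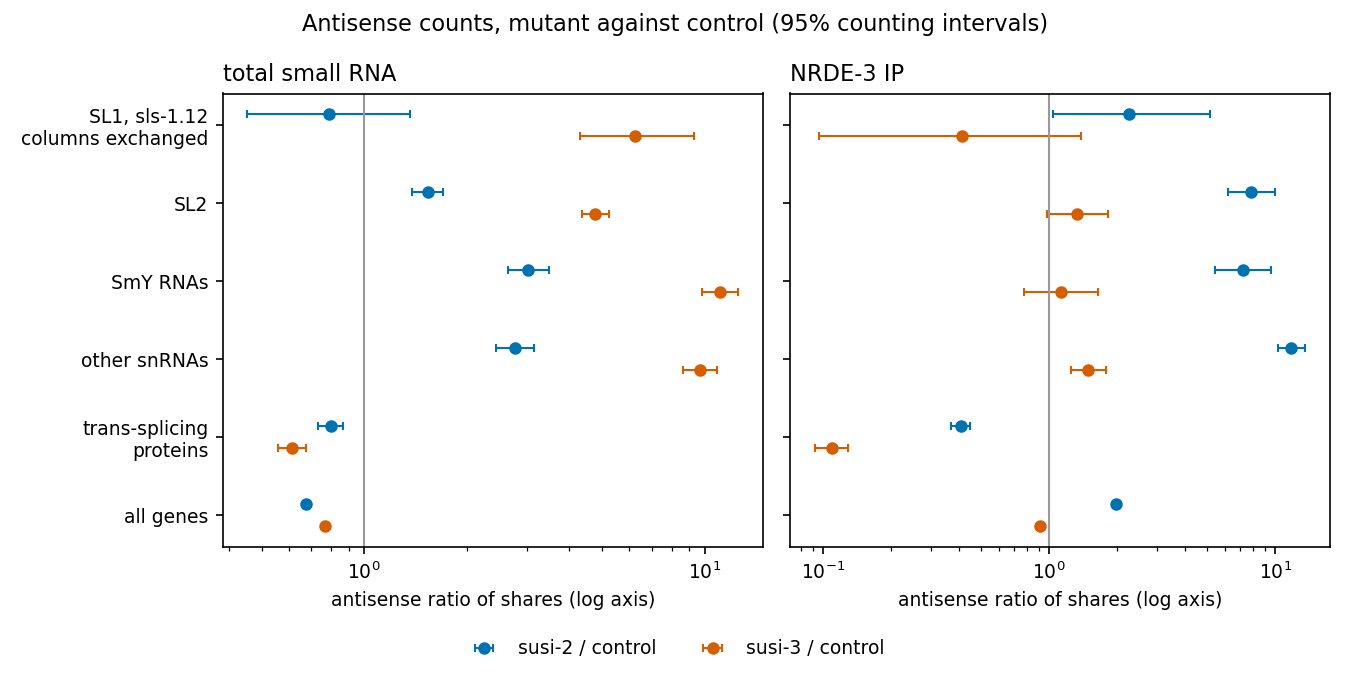
Antisense share of counts in each mutant divided by that in the control (log axes of different range), for total small RNA (left) and the NRDE-3 IP (right), with 95% counting intervals from 1 library per group. In total RNA susi-3 lies right of susi-2 for SL1 (columns of sls-1.12 exchanged), SL2, SmY RNAs and other snRNAs, and in the IP susi-2 lies right of susi-3 for the same groups; the summed trans-splicing proteins lie left of 1 in all 4 comparisons, although TMM turns their susi-2 total ratio above 1.

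The counts give no firm check of the mutants. The gene rrp-8, which is susi-2, had 30, 10 and 36 sense counts in the control, susi-2 and susi-3 total libraries, and riok-1, which is susi-3, had 94, 138 and 89. The small RNA of a gene need not follow its mRNA, and the labels do not state what the alleles change.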

How the data were processed

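The authors deposited 1 table of counts per library, with a sense and an antisense count for each annotated transcript (56377 features); per the submitters' processing notes reads were aligned with Bowtie2, and not given in the sources used here are its version, the genome build, the annotation and the rule for reads with several matches. Per the labels' protocols, RNA of 17 to 30 nucleotides was gel-purified after phosphatase and then kinase treatment with 1 mM ATP, and sequenced on an Illumina machine. The deposited counts were summed by gene (45510 genes), using the locus names in the tables and then a name table. Features that name no gene held at most 122 counts in a library and were left out of the totals.

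Shares are counts per 1000000 (CPM) of both strands. Ratios of shares have exact conditional (Clopper-Pearson) 95% intervals, percentages have exact binomial intervals and summed levels have Poisson intervals. With 1 library per group the mutants were not tested against the control. IP against total RNA was tested over the 3 genotypes with edgeR's quasi-likelihood test, genotype as a block, on all genes with 50 or more counts of a strand, scaled to all counts; this leaves 2 residual degrees of freedom, counts differences between genotypes as spread, and was added after the data were seen. Single genes that reached 50 counts over a pair of libraries were compared as the log2 ratio of CPM + 1, and values of at least 1 or at most -1 are called at least 2-fold; these fold changes understate the change of low genes. This step was tested on simulated data, with 100 genes raised and 100 lowered 4-fold among 2864 to 5462 genes in each mutant comparison, and it recovered 100 and 99 to 100 of them. In simulated data for the edgeR fit, with 8-fold changes among 9550 (antisense) and 13634 (sense) genes, all 100 raised and all 100 lowered genes were called, as were 2 unchanged genes on each strand. In both simulations the changed genes had mean counts of at least 100. Spread was Poisson in the first and a fixed negative binomial in the second, with the same change in every genotype. The SL2 genes had 0 to 15 antisense counts in the control IP, so recovery of such genes was not tested. A count of 0 allows up to 3 counts, which is 2.79e-05 to 3.29e-05% of a library. Neighbours and overlaps came from the RefSeq gene table, whose assembly may not be that of the files.

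The members, the lists and the rule for naming genes were chosen with earlier results of these data known. Named were sls-1.12 and sls-2.8, per family the 3 members with the highest mean antisense CPM and the 2 with the highest mean sense CPM, the highest and lowest tested antisense ratio of each mutant comparison, members more than 3 times away from their family's median, and 2 genes per list with the highest mean antisense CPM; others were named after their values were seen. Alternatives were TMM scaling of the antisense counts with edgeR 4.0.16 in R 4.3.3, a denominator outside ribosomal RNA genes, count minimums of 0, 10 and 200, a pseudocount of 0.5, families without their top copy and, added after the data were seen, the exchange of the columns of sls-1.12 and the counts of 4 overlapping noncoding RNAs. Other steps used Python 3.11.15 with pandas 2.3.3, numpy 2.4.6, scipy 1.17.1 and matplotlib 3.10.9.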

Additional observations from a re-analysis of the deposited data

Results flagged for a closer look

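In 4 pairs, contrasts between mutants or kinds of library went in opposite directions. In none of them was the difference itself tested, and each ratio rests on 1 library per group with the control library shared between mutants. SL1 sense, with sls-1.12 exchanged, was 1.29 times the control in the susi-2 IP and 0.729 times in the susi-3 IP. The same measure in susi-2 was 0.653 times the control in total RNA and 1.29 times in the IP. SL2 sense was 1.16 times the control in total susi-2 and 0.761 times in total susi-3. In susi-2, SL2 sense was 1.16 times the control in total RNA and 0.550 times in the IP. Neither direction changed in any of the 4 pairs when counts outside ribosomal RNA genes were the denominator.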

How the results depend on the processing

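Of 165 alternative values of 63 results, 91 stayed within the counting interval or within 1.5 times the count, 69 moved and 5 changed direction. Mutants against control could not be paired, and no library could be left out, as each group held 1. With genotype as a replicate block, edgeR called 8 SL2 genes lower in the IP on the antisense strand and 8 on the sense strand; leaving out each genotype gave 0 to 14 and 2 to 12, and 0 to 11 for the 11 SL1 sense genes. TMM in that fit gave 8, 12 and 11, turned sls-2.1, sls-2.3 and sls-2.4 antisense to log2 differences of 0.21, 0.13 and 0.43 (adjusted p 0.620 to 0.874 by edgeR), and took sls-1.12 antisense as annotated from an adjusted p of 0.0232 to 0.0855 by edgeR. TMM on the antisense counts moves every log2 ratio by 0.55 in total susi-2, 0.49 in total susi-3, -1.05 in the susi-2 IP and 0.11 in the susi-3 IP. It gave SL1 antisense as annotated 1.01, 1.21 and 0.839 in the first 3, all reversed, and SL2 antisense 2.25, 6.71 and 3.77. It raised the members at least 2-fold higher in total susi-2 to 4. It left 18 of 18 SL2 genes higher in total susi-3, 16 in total susi-2, 15 in the susi-2 IP and 11 in the susi-3 IP. As TMM moves all genes alike, the shares over all genes change too. They are not given here on that scale, so these counts of members are descriptions.

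Counts outside ribosomal RNA genes as the denominator shift log2 ratios by -0.03 to 0.25 between genotypes and by 0.68 to 0.96 between IP and total RNA. SL1 sense became 0.693 in total susi-2, 1.47 in the susi-2 IP and 0.841 in the susi-3 IP. For IP against total RNA in the control, susi-2 and susi-3, SL1 antisense became 0.274, 0.757 and 0.329, SL1 sense 0.285, 0.602 and 0.364, SL2 antisense 0.216, 1.21 (reversed) and 0.0729, and SL2 sense 0.808, 0.421 and 0.523. Adding the 4 noncoding RNAs moved 1 value, SL2 antisense of the susi-2 IP against total RNA, to 0.767.

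With sls-1.12 exchanged, SL1 antisense against control became 0.791 in total susi-2, 6.25 in total susi-3 (reversed), 2.25 in the susi-2 IP and 0.411 in the susi-3 IP, and for IP against total RNA 0.326, 0.927 and 0.0215. In the order total control, susi-2, susi-3, then IP, the SL1 antisense percentage became 0.516, 0.624, 4.64, 0.952, 1.64 and 0.539%, and the SL1 share of antisense spliced leader counts 5.37, 2.84, 6.92, 12.1, 3.81 and 4.08%; the SL1 share of sense counts became 89.5, 82.8 and 88.2% in the total libraries. Leaving out the top copy of each family, which for SL1 antisense is sls-1.12, gave SL1 antisense percentages of 0.497, 0.577, 4.47, 0.973, 1.83 and 0.622% and SL1 shares of antisense counts of 5.66, 2.8, 7.02, 13.3, 4.17 and 4.71%. It gave SL1 shares of sense counts of 89.5% in the control and 88.0% in susi-3 total RNA, and SL2 antisense percentages of 39.1, 46.6 and 81.1% in the total libraries.

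A count minimum of 10, or none, gave 21 members at least 2-fold higher in total susi-3 and 12 in the susi-2 IP. A minimum of 200 gave 5 and 0, since fewer genes reach it. The shares of all genes at these other minimums are not given here, so these counts of members are descriptions. A pseudocount of 0.5 moved no count by over 1.5 times. Depth limits single copies most, since SL2 antisense sums to 80 counts in the control IP and 94 in the susi-3 IP.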

Other observations

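Several SL2 genes lie within protein-coding genes, whose antisense counts are set beside those of the copies. As the gene tables carry no strand, whether a host and its copy share a strand is not known. In control, susi-2 and susi-3, host sense counts in total RNA were 9, 13 and 11 for glr-2, 5, 3 and 14 for daf-10, and 80, 153 and 77 for W09D6.5. After IP they were 29, 96 and 16 for glr-2, 54, 34 and 56 for daf-10, and 113, 55 and 72 for W09D6.5. The gene daf-10, an intraflagellar transport gene that holds sls-2.11, had 3, 4 and 3 antisense counts in the control, susi-2 and susi-3 total libraries, beside 56, 148 and 316 for sls-2.11, and 9, 12 and 11 after IP, beside 6, 63 and 13. The gene hgo-1, which holds sls-2.6, had 264, 526 and 385 sense counts and 11, 11 and 10 antisense counts in total RNA, and 8, 11 and 5 antisense counts after IP. The gene W09D6.5, which holds sls-2.14 and sls-2.15, had 74, 13 and 31 antisense counts in total RNA, so it was highest in the control, whereas sls-2.15 was highest in susi-3 with 15, 26 and 73. After IP, however, W09D6.5 had 22, 123 and 13 antisense counts and sls-2.15 had 0, 12 and 8, both highest in susi-2. The gene glr-2, which overlaps sls-2.5, sls-2.16 and sls-2.18, had 14, 13 and 4 antisense counts in total RNA and 11, 17 and 9 after IP, so it too was highest in susi-2 after IP, as sls-2.18 was with 5, 23 and 2.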
